A study of Mus musculus with 6 samples.

Results

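Mitochondrial protein import genes encode the machinery that brings proteins made in the cytosol into mitochondria. Members were every gene of the deposited table whose symbol begins with Tomm or Timm, together with Samm50, Mtx1, Mtx2, Pam16, Dnajc19, Grpel1, Hspa9, Hspd1, Hspe1, Pmpca and Pmpcb, with pseudogenes left out. The rule found 30 of 13734 genes, of which 29 code for protein and 1 (Tomm6os) is an RNA antisense to another gene. The symbols Timm9, Timm13, Timm21, Tomm5, Tomm6, Tomm20l, Tomm22 and Tomm70a, which the rule also covers, are not analysed here.

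Poly(A) RNA was sequenced from white adipocytes grown from 1 immortalized mouse subcutaneous preadipocyte line, which carries Dicer1 flox/flox alleles and Cre-ERT2, a Cre recombinase that tamoxifen activates. Dicer1 encodes the enzyme that cuts microRNA precursors. From day 6 of differentiation, cells were given 10 µM 4-hydroxytamoxifen for 48 h (DICER_KO, 3 libraries) or ethanol (control, 3 libraries), and both groups then had 10 µM isoproterenol, a beta-adrenergic agonist, for 6 h. Controls were not exposed to 4-hydroxytamoxifen, so the deletion and the drug cannot be told apart. All libraries come from stimulated cells of 1 line. The labels call them biological replicates but do not say that the cultures were differentiated separately. The p-values here thus speak only to the spread of these libraries, which may be technical.

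Nearly all mitochondrial proteins are encoded in the nucleus. They cross the outer membrane through the TOM complex, whose channel is Tomm40. Beta-barrel proteins are then placed in the outer membrane by the SAM complex, carrier proteins are passed by small TIM chaperones to the TIM22 complex, and proteins with a cleavable presequence enter the matrix through TIM23, pulled by a motor built on the chaperone Hspa9. In the matrix a peptidase removes the presequence and the Hspd1 and Hspe1 chaperonin folds the protein. Adipocytes depend on this route for the enzymes that burn fatty acids and for the respiratory chain.

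The deposited values are log2 CPM, the log2 of reads scaled to the size of the library. The 6 libraries held 13569034 to 30268077 reads on the genes of the table, the most in DICER_KO replicate 3. Dicer1 itself averaged 6.12 log2 CPM in controls and 5.46 in DICER_KO, with no overlap between the groups (difference -0.66, limma adjusted p = 0.0150). DICER_KO replicate 3 stood apart from the other libraries of its group. A chi-square of reads per degree of freedom was 85.5 and 92.8 between it and replicates 1 and 2, against 8.36 between replicates 1 and 2 and 12.1 to 26.4 between controls. All 10 mature adipocyte markers were present. Their summed level was 7402 to 9369 CPM in controls, 11958 and 11819 in DICER_KO replicates 1 and 2, and 3684 in replicate 3. Replicates 1 and 2 were both above every control for 8 of the 10, and both below for 1, Lpl. Replicate 3 was below every control for all 10. Fabp4 and Lpl, the largest terms of the sum, differed by 0.26 and -0.68 log2, and by 0.90 and -0.30 without replicate 3. The summed level of 8 preadipocyte and fibroblast markers was 6481 to 7952 CPM in controls and 3679.9 to 4610.2 in DICER_KO. The collagens Col3a1 (-1.44 log2, limma adjusted p = 0.00856) and Col1a1 (-0.70, 0.0814) are the largest terms of that sum, while Pdgfra (-0.06), Pdgfrb (0.02), Ly6a (-0.05) and Cd34 (-0.04) lay near 0 and Thy1 was at -0.46 (0.112), and the median over the 7 tested markers was -0.06. Without replicate 3 Col1a1 (-0.65, limma adjusted p = 0.00273) and Thy1 (-0.38, 0.0179) also passed, and the median of the 7 was 0.03. Of 5 macrophage markers only Cd68 is analysed here (16.6 to 18.8 CPM in controls, 22.6 to 23.0 in DICER_KO). The 4 endothelial markers summed to 4.94 to 6.09 CPM in controls and 6.31 to 8.16 in DICER_KO. Tek is the largest term of the endothelial sum (0.67 log2, 0.68 without replicate 3). Kdr, the only other endothelial marker tested, went the other way (-1.39, or -2.07 without replicate 3), and Pecam1 and Cdh5 were too low to test. The 4 smooth muscle markers summed to 429 to 567 CPM in controls and 349.7 to 444 in DICER_KO. The 3 tested smooth muscle markers differed by -0.30 to -0.45 log2, and 0 of them passed the test with all libraries. Without replicate 3 they differed by -0.37 to -0.53, and 1 passed, Tagln (-0.37, limma adjusted p = 0.0350). The part of these marker lists in the results on import genes was not tested. A member's difference is given also without replicate 3 where leaving it out changes the call or moves the value appreciably. In these bulk libraries, fewer cells of a type and less RNA per cell cannot be told apart.

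No import gene passed the test between DICER_KO and control with all 6 libraries. Of 28 members that reached 1 CPM in 3 or more libraries, 0 were called at a Benjamini-Hochberg adjusted p under 0.05 by limma, where 0.149% of the 10054 genes tested were called higher, 0.288% lower and 0.438% in either direction. At an unadjusted p under 0.05 there were 2 members, Timm8a1 and Dnajc19, both higher, against 15.8% of all genes in either direction and 8.49% in the higher direction. The smallest adjusted p of a member was 0.288. The members' differences ran from -0.15 to 0.37 log2 with a median of 0.11, and 23 of 28 lay above 0. Over all genes tested the median was 0.02 and 52.8% lay above 0.

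Behind that median, the 3 DICER_KO libraries differed from each other. Measured from the control mean, the median import gene stood at 0.27 log2 in DICER_KO replicate 1, at 0.13 in replicate 2 and at -0.06 in replicate 3, and the controls themselves stood at 0.07, -0.06 and -0.01. Summed over the 30 members, the level was 3848, 3562 and 3753 CPM in controls and 4539, 4040.3 and 3455 CPM in DICER_KO replicates 1, 2 and 3. The sum of replicate 3 was thus the lowest of all 6 libraries, and those of replicates 1 and 2 were the highest. Hspa9 is by far the largest term of this sum. It was at 10.58, 10.47 and 10.54 log2 CPM in controls and 10.80, 10.60 and 10.34 in DICER_KO replicates 1, 2 and 3. The lowest place of replicate 3 among the sums rests on that gene. Replicates 1 and 2 were both above every control for 19 of 28 members (all genes 28.2%), and both below every control for 0 (all genes 23.5%). Replicate 3 was the lowest DICER_KO library for 25 of 28 (all genes 40.6%), below the control mean for 21 (47.9%), below every control for 10 (28.9%) and above every control for 2 (28.8%). Those 2, Timm17a and Timm8a1, were the members for which all 3 DICER_KO libraries exceeded all controls, a share no larger than that of all genes (10.4%). For 0 members were all 3 below all controls (9.81% of all genes).

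**Figure D1:**
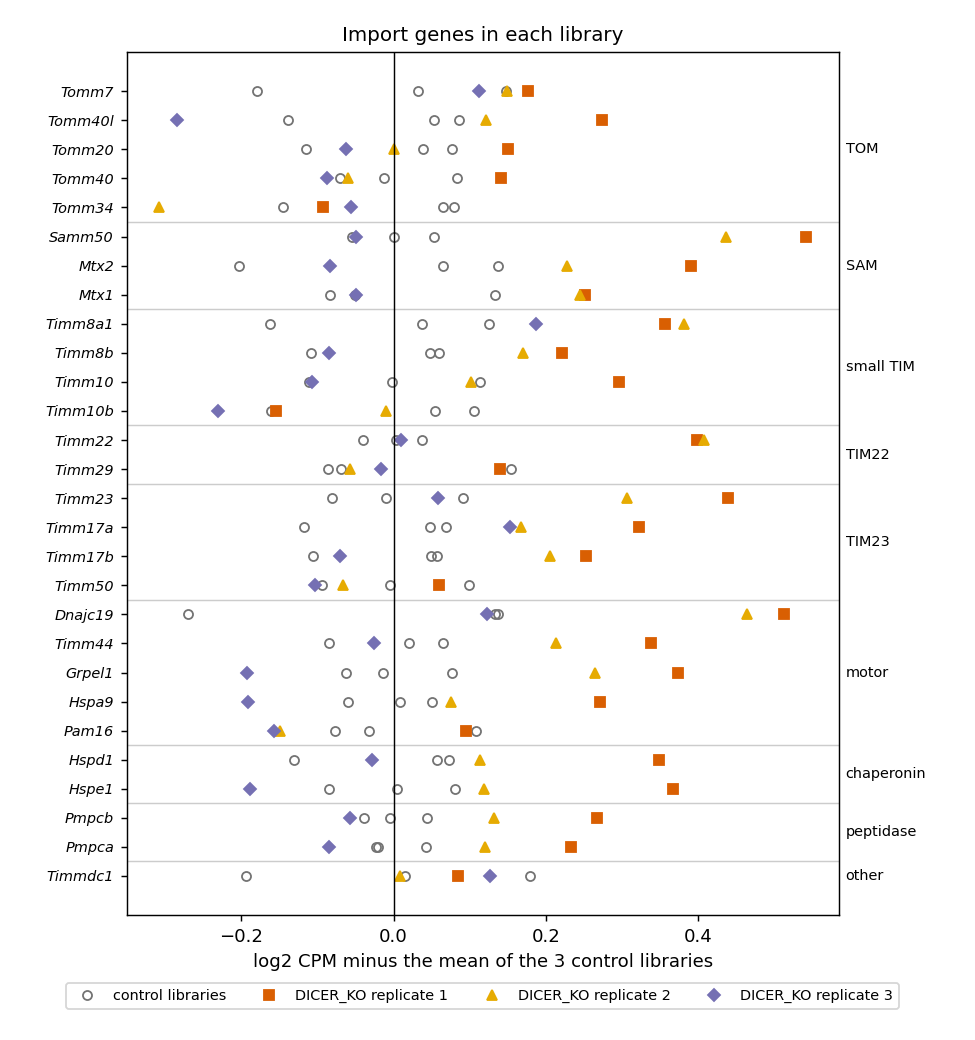
Level of the 28 tested import genes in each library, as log2 CPM minus the mean of the 3 controls (horizontal axis), with genes in rows grouped by role. Open circles are controls and filled symbols are the 3 DICER_KO libraries; replicate 3 (diamonds) is the lowest DICER_KO library for 25 of 28 genes.

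Without DICER_KO replicate 3, 6 import genes were called higher and 0 lower by limma. That library was singled out by its values in these same data, so p-values without it may be too small. The 6 were 21.4% of the 28 members, where 12.5% of all genes were called higher, 7.22% lower and 19.7% in either direction. Samm50 had the largest of these differences, 0.49 log2 or 1.40-fold (adjusted p = 0.00214). Dnajc19 was also at 0.49 (adjusted p = 0.0189), Timm22 at 0.40 (0.00984), Timm23 at 0.37 (0.0228), Timm8a1 at 0.37 (0.0490) and Grpel1 at 0.32 (0.0298). The members' median became 0.20 log2, with 24 of 28 above 0 (all genes 52.5%). Unadjusted p was under 0.05 for 12 members, all higher, against 20.1% of all genes in that direction. The 6 genes belong to different steps: a SAM subunit, a small TIM, the TIM22 channel, the TIM23 channel and a pair of motor cofactors. They lie on separate chromosomes (GRCm38.p6): Samm50 on 15 (84192240 to 84216083), Timm22 on 11 (76406925 to 76416313), Timm23 on 14 (32180166 to 32201891), Dnajc19 on 3 (34057280 to 34081354), Grpel1 on 5 (36465185 to 36474077) and Timm8a1 on X (134537256 to 134541670). Weighting the libraries by quality, with replicate 3 weighted least (0.242, against 3.84 for control replicate 1), called 8 members higher, the same 6 with Tomm7 and Timm44, where 19.2% of all genes were called higher and 13.6% lower. With the weights estimated by REML, whose iterations did not converge, 9 members were called higher and 1 (Tomm34) lower, where 25.3% and 19.3% of all genes were called. The level of mature adipocyte markers moved with the same library, and its part in these results was not tested.

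**Figure D2:**
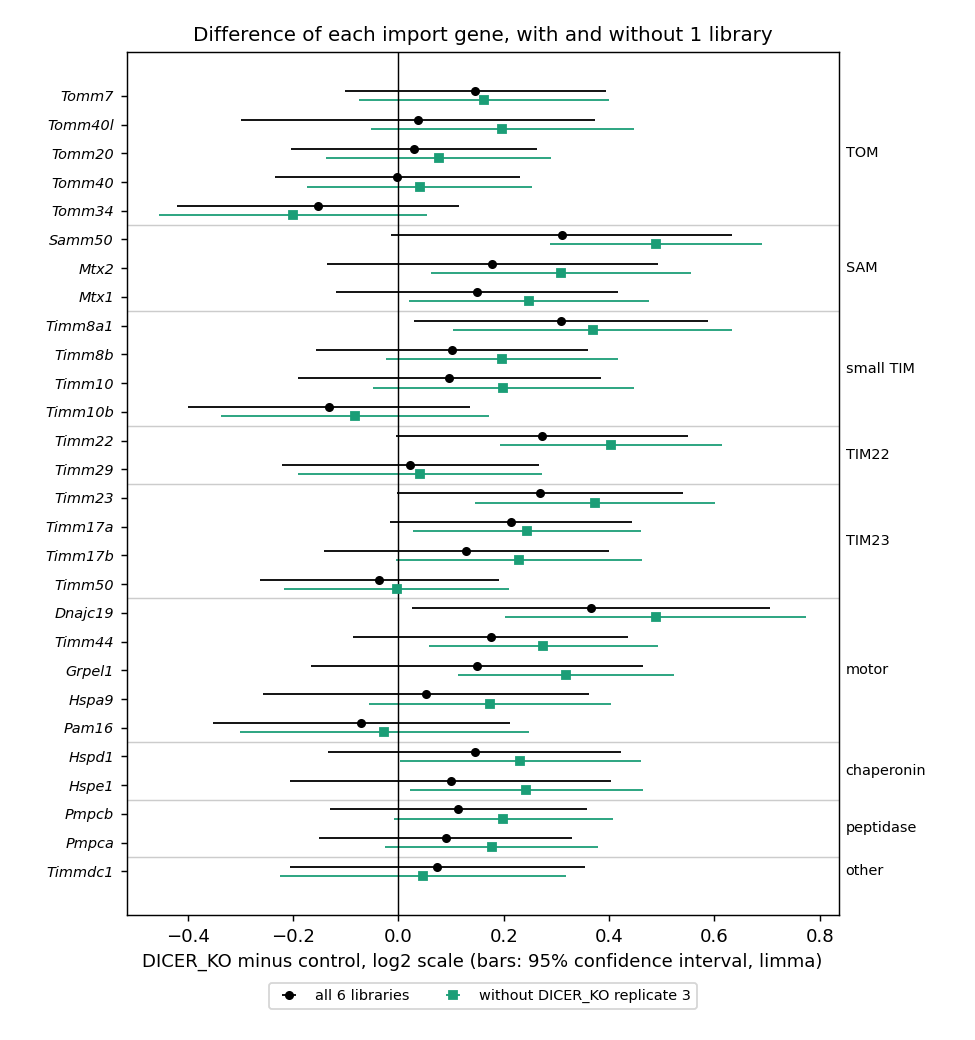
DICER_KO minus control for each tested import gene on the log2 scale (horizontal axis) with its 95% confidence interval from limma. Black points use all 6 libraries and green squares leave out DICER_KO replicate 3, without which the intervals of 12 genes lie above 0.

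The 5 members grouped with the outer membrane entry gate had the smallest median difference of the role groups with all libraries, 0.03 log2. It was 0.08 without DICER_KO replicate 3. Their differences ran from -0.15 to 0.15. They include the cytosolic Tomm34, and Tomm5, Tomm6, Tomm22 and Tomm70a are not among them. Tomm40, the channel, read 7.13, 7.03 and 6.97 log2 CPM in control replicates 1 to 3 and 7.18, 6.98 and 6.96 in DICER_KO replicates 1 to 3. Its difference was -0.00 log2 with a 95% interval of -0.24 to 0.23. Without replicate 3 it was 0.04 with an interval of -0.17 to 0.25. The difference of Samm50 in that same fit, 0.49, lies outside the latter interval. Tomm20, a receptor for presequences, was at 7.17, 6.97 and 7.13 in controls and 7.24, 7.09 and 7.03 in DICER_KO, and the groups overlapped (difference 0.03, or 0.08 without replicate 3). Tomm7, a small subunit that regulates the assembly of the complex, had the smallest p of the group (difference 0.15, limma adjusted p = 0.505). Its lowest library was a control, with controls at 5.51, 5.72 and 5.83 and DICER_KO at 5.86, 5.83 and 5.80. Tomm40l, a relative of Tomm40, was at 4.77, 4.73 and 4.54 in controls and 4.95, 4.80 and 4.40 in DICER_KO, so the DICER_KO libraries held both its highest and its lowest value, and its difference went from 0.04 to 0.20 without replicate 3 (adjusted p = 0.239 in limma). Its exons overlap those of Nr1i3 on the other strand over 45.5% of their length. Strand use in counting is not stated, so how reads in that overlap were counted is not known. Tomm34, a cytosolic cochaperone that hands precursors to the mitochondrion, had the lowest difference of the 28 tested members (-0.15, 95% interval -0.42 to 0.12). It read 5.0, 5.01 and 4.79 in controls against 4.84, 4.63 and 4.88 in DICER_KO, and here replicate 2 and not replicate 3 was the lowest.

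The SAM complex, which inserts beta-barrel proteins such as Tomm40 into the outer membrane, had a median difference of 0.18 log2 over its 3 members, and 0.31 without DICER_KO replicate 3. Samm50, its barrel-shaped core, read 7.72, 7.67 and 7.78 log2 CPM in controls, against 8.26, 8.16 and 7.67 in DICER_KO. DICER_KO replicates 1 and 2 were thus well above the controls and replicate 3 was among them, for a difference of 0.31 (SE 0.15, limma adjusted p = 0.331). The metaxins Mtx1 and Mtx2 sit beside Samm50 on the cytosolic face. Mtx1 was at 5.53, 5.35 and 5.31 in controls and 5.65, 5.64 and 5.35 in DICER_KO, and Mtx2 at 5.83, 5.57 and 5.91 in controls and 6.16, 6.00 and 5.69 in DICER_KO. All 3 SAM members had the same order, with replicates 1 and 2 above every control and replicate 3 below the control mean. The metaxins' differences were 0.15 and 0.18 with all libraries, and without replicate 3 they were 0.25 and 0.31 (adjusted p = 0.113 and 0.0730).

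The small TIM proteins carry hydrophobic precursors across the space between the membranes. Timm8a1, the mouse counterpart of the human deafness-dystonia gene on the X chromosome, had the smallest p of the tested import genes. It read 4.18, 3.98 and 4.27 log2 CPM in controls against 4.50, 4.53 and 4.33 in DICER_KO, so all 3 DICER_KO libraries were above all controls. Its difference was 0.31 (SE 0.13, 95% interval 0.03 to 0.59), or 1.24-fold, with an adjusted p of 0.288. Timm8b was at 5.63, 5.62 and 5.46 in controls and 5.79, 5.74 and 5.48 in DICER_KO, a difference of 0.10 (0.20 without replicate 3). Timm10, the partner of Timm9 in the carrier chaperone, was at 4.97, 4.74 and 4.85 in controls and 5.15, 4.95 and 4.75 in DICER_KO, also a difference of 0.10 (0.20 without replicate 3). Timm10b, which joins the carrier chaperone to TIM22, had a difference of the other sign (-0.13, or -0.08 without replicate 3), with 4.92, 4.87 and 4.66 in controls and 4.66, 4.81 and 4.59 in DICER_KO, and its groups overlapped. The group's median was 0.10, and 0.20 without replicate 3. Timm8a2, a relative of Timm8a1, had 0 to 2 reads in a library and was below the expression filter.

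Over the 2 members of TIM22 the median difference was 0.15 log2 (0.22 without DICER_KO replicate 3), and over the 4 of TIM23 it was 0.17 (0.24). These inner membrane gates divided into members with higher values in DICER_KO replicates 1 and 2 and members near the controls. Timm22, the channel for carrier proteins, read 5.61, 5.58 and 5.53 log2 CPM in controls against 5.97, 5.98 and 5.58 in DICER_KO, a difference of 0.27 (limma adjusted p = 0.321). Its subunit Timm29 was at 6.43, 6.21 and 6.19 in controls and 6.42, 6.22 and 6.26 in DICER_KO, a difference of 0.02 with an interval of -0.22 to 0.27 (0.04 without replicate 3). Timm23, the presequence channel, read 5.24, 5.17 and 5.34 in controls against 5.69, 5.56 and 5.31 in DICER_KO, a difference of 0.27 (adjusted p = 0.318). Timm17a and Timm17b are alternative partners of Timm23 in that channel. Timm17a was at 6.71, 6.52 and 6.69 in controls and 6.96, 6.81 and 6.79 in DICER_KO, with no overlap and a difference of 0.21 (adjusted p = 0.340). Timm17b was at 4.96, 4.95 and 4.80 in controls and 5.15, 5.11 and 4.83 in DICER_KO, a difference of 0.13 (0.23 without replicate 3). Timm50, the receptor that receives presequences behind the outer membrane, had a difference of -0.04 (-0.00 without replicate 3), with 6.67, 6.56 and 6.47 in controls and 6.63, 6.50 and 6.46 in DICER_KO. Timmdc1, which shares the Timm name and takes part in assembling respiratory complex I, was at 4.67, 4.50 and 4.29 in controls and 4.57, 4.50 and 4.61 in DICER_KO, all within the spread of the controls (difference 0.07, or 0.05 without replicate 3).

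The import motor draws the chain into the matrix with cycles of Hspa9, the mitochondrial Hsp70. Dnajc19, a J protein that stimulates Hspa9, had the largest difference of the tested import genes with all 6 libraries. It read 4.52, 4.12 and 4.52 log2 CPM in controls against 4.90, 4.85 and 4.51 in DICER_KO, a difference of 0.37 (SE 0.15, 95% interval 0.03 to 0.71, limma adjusted p = 0.291). Control replicate 2 was its lowest library, and 393 to 964 reads a library lay behind these values. Timm44, which anchors the motor to the channel, was at 5.81, 5.71 and 5.86 in controls and 6.13, 6.01 and 5.77 in DICER_KO, a difference of 0.17 (0.28 without replicate 3, limma adjusted p = 0.0698). Grpel1, the nucleotide exchange factor of Hspa9, was at 6.99, 6.94 and 7.08 in controls and 7.38, 7.27 and 6.81 in DICER_KO. Its replicate 3 value was the lowest of the 6, and its difference was 0.15 with all libraries and 0.32 without that one. Hspa9 showed the same order at a far higher level, with 10.58, 10.47 and 10.54 in controls and 10.80, 10.60 and 10.34 in DICER_KO, for a difference of 0.05 (0.17 without replicate 3). Pam16, the J-like protein that holds Dnajc19 in check, differed by -0.07 (-0.03 without replicate 3), with 4.23, 4.05 and 4.09 in controls and 4.22, 3.97 and 3.97 in DICER_KO. The motor's median over 5 members was 0.15, and 0.28 without replicate 3.

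Hspd1 (Hsp60) and Hspe1 (Hsp10) form the folding chamber of the matrix, and their genes lie head to head on chromosome 1. Hspd1 read 8.98, 8.79 and 8.99 log2 CPM in controls against 9.27, 9.03 and 8.89 in DICER_KO, a difference of 0.14. Hspe1 read 7.07, 6.90 and 6.99 in controls against 7.35, 7.11 and 6.80 in DICER_KO, a difference of 0.10. Without replicate 3 the differences were 0.23 for Hspd1 and 0.24 for Hspe1 (limma adjusted p = 0.140 and 0.111). The log2 ratio of Hspd1 to Hspe1 varied little, at 1.91, 1.88 and 2.00 in controls and 1.91, 1.93 and 2.09 in DICER_KO. The 215 bases between their starts are shown because both genes share them (RefSeq, GRCm38.p6, chr1:55087933-55088147, plus strand). Capitals mark a run that holds a pair of overlapping matches to the heat shock element, the binding sequence of heat shock factors. Another annotated start of Hspd1, at position 55088243, lies on the far side of the Hspe1 start.
Hspd1 and Hspe1 shared promoter: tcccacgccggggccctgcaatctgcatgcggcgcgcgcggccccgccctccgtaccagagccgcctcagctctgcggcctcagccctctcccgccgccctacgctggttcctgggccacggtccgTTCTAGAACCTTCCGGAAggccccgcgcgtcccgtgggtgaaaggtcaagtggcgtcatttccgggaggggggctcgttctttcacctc

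The element (the blocks TTC, GAA and TTC with 2 bases between blocks) was searched on both strands in windows from 250 bases before to 50 after the start of 25 members and 7932 tested genes. It was found for Hspd1 and Hspe1, the same shared stretch, and for 0.605% of all genes. An ETS core (CCGGAAG), which overlaps the heat shock matches in the printed run, was in 14 of 25 members' windows (56%) and in 18.9% of all genes. Hspd1 and Hspe1 both count among the 14 and hold the same matches in the stretch they share. The NRF1 core (GCGCA, any base, GCGC) was in 4 members' windows (10.9% of all genes) and CCAAT in 9 (43.1%). The YY1 core (AAGATGGCG) was in 2 (3.16%) and the ERR element (TCAAGGTCA) in 1, Timm8b (0.366%). The CRE (TGACGTCA) was in 0 (3.49%) and the CARE core (TGATGNAA) in 0 (2.7%). These matches describe the letters of the windows, and binding was not measured.

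The matrix processing peptidase cuts presequences from nearly every protein that TIM23 admits. Its catalytic subunit Pmpcb was at 6.22, 6.27 and 6.19 log2 CPM in controls and 6.49, 6.36 and 6.17 in DICER_KO, a difference of 0.11. Its alpha subunit Pmpca was at 6.84, 6.91 and 6.85 in controls and 7.10, 6.99 and 6.78 in DICER_KO, a difference of 0.09. For both subunits replicates 1 and 2 were above every control and replicate 3 below every control. Without that library their differences were 0.20 for Pmpcb and 0.18 for Pmpca (limma adjusted p = 0.160 and 0.194). Pmpca shares 25% of its exon length with Inpp5e on the other strand.

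Ratios within a library do not depend on its scaling, and 9 pairs of partners or relatives were compared in this way by exact permutation tests, two-sided, for which 3 against 3 libraries cannot give a p below 0.1. All 9 ratios overlapped between the groups, with adjusted p over the pairs of 0.75 to 1. The largest shifts, DICER_KO minus control, were 0.24 log2 for Dnajc19 over its relative Dnajc15 (exact p = 0.4), 0.23 for Timm10 over Timm10b (0.3) and 0.21 for Timm8a1 over Timm8b (0.3). The tightest ratio was that of the peptidase subunits, Pmpca over Pmpcb, which averaged 0.64 ± 0.02 over the controls against 0.62 ± 0.01 over DICER_KO (SD, n = 3 a group, exact p = 0.2). The ratio of Timm17a to Timm17b was 1.74 ± 0.16 and 1.82 ± 0.13 (SD, n = 3; exact p = 0.5). Shifts were -0.04 for Tomm40 over Tomm40l, -0.03 for Mtx1 over Mtx2 and -0.06 for Grpel1 over Grpel2, the second exchange factor of Hspa9. In Grpel1 over Grpel2 the value of DICER_KO replicate 3 (2.02) was below all others (2.39 to 2.55), and the shift without that library was 0.11. Without it the shift was -0.16 for Tomm40 over Tomm40l, -0.06 for Mtx1 over Mtx2 and 0.02 for Timm17a over Timm17b.

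Compared per kilobase of exon, the matrix chaperones were the most abundant import transcripts in control adipocytes. The length is that of all annotated exons of a gene together, and the transcripts these cells use are not known. The order depends on that length. Before scaling by it, Samm50 (7.72 log2 CPM) was above Hspe1 (6.99), and Dnajc19 (4.39) was above Timm8a1 (4.15) and Pam16 (4.12). Hspa9 was at 8.92 ± 0.06 log2 CPM per kilobase (SD, n = 3), or 484 CPM per kilobase, followed by Hspd1 at 7.64 ± 0.11 and Hspe1 at 7.36 ± 0.08. Timm8b (6.52 ± 0.09), Tomm40 (6.30 ± 0.08) and Timm50 (5.97 ± 0.10) came next. The middle of the order was crowded: Pmpcb, Tomm7 and Samm50 lay within 0.02 log2 of each other, less than the spread of any of them. Timm17b and Timm8a1 differed by 0.01, also less than their SDs. The lowest were Timm10b (2.92 ± 0.14), Tomm40l (2.44 ± 0.12) and Dnajc19 (2.39 ± 0.23), and the last 2 did not differ beyond their spread. By this measure the 6 genes called without replicate 3 were thus not the most abundant. Per kilobase Samm50 ranked 9 of 28, Grpel1 10, Timm23 13, Timm22 20, Timm8a1 25 and Dnajc19 28. Tomm6os had 10 to 30 reads a library and Timm8a2 at most 2, and neither was ranked or tested.

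**Figure D3:**
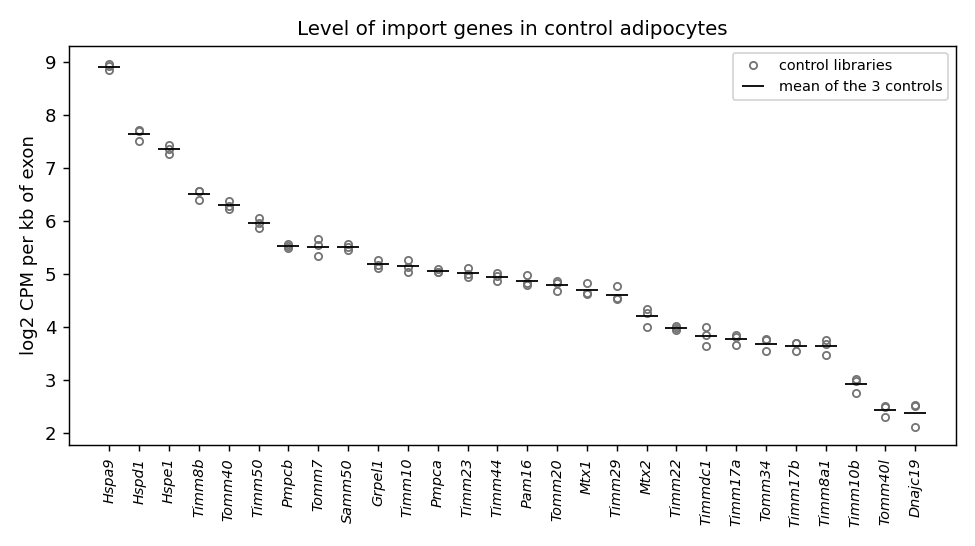
Level of the 28 tested import genes in the 3 control libraries, as log2 CPM per kilobase of exon (vertical axis), ordered by mean. Circles are libraries and bars are means, from 8.92 for Hspa9 down to 2.39 for Dnajc19.

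MicroRNAs act mostly by pairing their seed, bases 2 to 8, with sites in 3′ UTRs, so the members' longest annotated 3′ UTRs (GENCODE M21) were searched for matches to the seeds of 19 microRNA families. MicroRNAs themselves were not measured in these libraries. Of the 28 members 21 held at least 1 site (75%), against 80.9% of 9509 tested genes with a 3′ UTR, and the median 3′ UTR was 866 bases in members and 1367 in all genes. The members with a site had a median difference of 0.15 log2 and the 7 without had 0.05, and without DICER_KO replicate 3 these were 0.23 and 0.17. Over all genes the medians with and without a site were 0.02 and -0.01, and 0.03 and 0.00 without that library. The members' medians rest on few genes, and the difference between them was not tested. The miR-30 seed was matched in 5 members (17.9%, all genes 17%), Samm50, Timm22, Dnajc19, Mtx1 and Tomm20, and the let-7 seed in 3 (10.7%, all genes 12.1%), Grpel1, Timm17a and Timm17b. The miR-30 sites are shown because 3 of the 6 genes called without DICER_KO replicate 3 hold one; the family was picked to show after all 19 families and the members' values had been seen. Capitals mark the seed in the microRNA (RefSeq) and its match in the 3′ UTR (GRCm38).
miR-30a-5p: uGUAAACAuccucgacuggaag
Samm50, first site: gggataattttcTGTTTACtataag
Samm50, second site: cctgggacctttTGTTTACtgaata
Timm22: gtgccactgaacTGTTTACtgtagc
Dnajc19: tgatgcctgtttTGTTTACcatgca
Mtx1: tcagaataaaccTGTTTACact
Tomm20: taaacaaaagccTGTTTACtgccca

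Differences of the 5 members with these sites were not alike: Dnajc19, Samm50 and Timm22 were at 0.37, 0.31 and 0.27 log2, Mtx1 at 0.15 and Tomm20 at 0.03. Tomm20 holds matches of 8 of the 19 families, the most of any member, and Grpel1 holds 7.

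Beyond the members, further genes that work with the import route had differences of similar size. Of 36 listed 30 were tested, 0 were called with all libraries, and their median was 0.15 log2 with 26 above 0. Without DICER_KO replicate 3, 10 were called higher and 0 lower by limma (all genes 12.5% and 7.22%). Of these 10, 6 were among the 7 tested genes of MICOS, the complex that shapes cristae and tethers SAM to the inner membrane. Apoo, a MICOS subunit, had the largest difference (0.85, adjusted p = 0.183 with all libraries) with all DICER_KO libraries above all controls, and Micos13 had 0.30 (0.323). Without replicate 3 both were called, at 0.98 (adjusted p = 0.00995) and 0.41 (0.0251). Trap1, a matrix Hsp90 relative, had 0.30 (adjusted p = 0.317), and Romo1, an inner membrane protein, 0.26 (0.314), and without replicate 3 both were called, at 0.46 (0.00351) and 0.35 (0.0331). Among proteases, the AAA protease Yme1l1 had 0.30 (0.326) and Clpx, the unfoldase of the matrix Clp protease, 0.33 (0.345). Without replicate 3 Clpx was called at 0.53 (limma adjusted p = 0.00184) and Yme1l1 was not, at 0.33 (0.0900). Cox18, an insertase for a respiratory subunit, differed the other way (-0.32, adjusted p = 0.288), and all DICER_KO libraries were below all controls. Its companion Oxa1l, the main insertase of the inner membrane, was at -0.00 (0.997), and at 0.15 (0.319) without replicate 3. Agk, listed with them, was at 0.002 (limma adjusted p = 0.994), and at -0.02 (0.928) without replicate 3. In the disulfide relay, which folds small TIM proteins as they arrive, Chchd4 had 0.17 (0.495) and Gfer -0.05 (0.836), and without replicate 3 they had 0.27 (0.123) and 0.02 (0.905).

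The order of the DICER_KO libraries in the import genes was also that of other nuclear genes for mitochondrial proteins. The median of 38 complex I subunits stood at 0.50, 0.43 and -0.07 log2 from the control mean in DICER_KO replicates 1, 2 and 3, and that of 55 mitochondrial ribosomal proteins at 0.26, 0.16 and 0.01, beside 0.27, 0.13 and -0.06 for import genes. With all libraries 0 genes of either set were called. Without replicate 3, 33 complex I subunits were called higher and 1 lower (86.8% higher), and 11 ribosomal proteins higher and 0 lower (20%), beside 21.4% of import genes. Of all genes tested, 12.5% were called higher and 7.22% lower without that library. The median mature adipocyte marker was also lowest in replicate 3, with a wider span (0.58, 0.57 and -1.22), and hardly differed between replicates 1 and 2. No test of the difference between these sets was made.

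**Figure D4:**
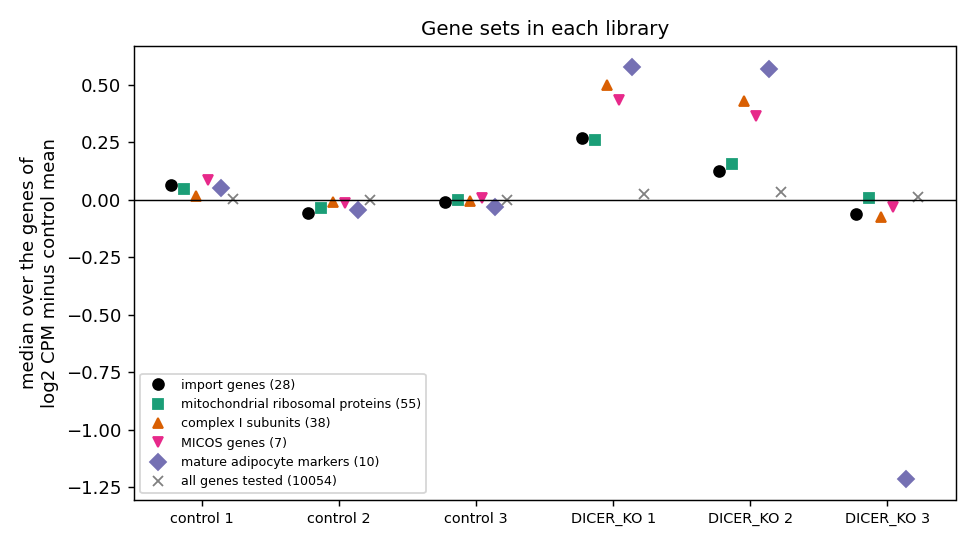
Median over each gene set of log2 CPM minus the control mean (vertical axis) in each of the 6 libraries (horizontal axis), with the number of genes in the legend. Import genes stand at 0.27, 0.13 and -0.06 in DICER_KO replicates 1, 2 and 3, complex I subunits at 0.50, 0.43 and -0.07, and mature adipocyte markers at 0.58, 0.57 and -1.22.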

How the data were processed

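Poly(A) RNA of 6 adipocyte samples was sequenced, and the authors deposited log2 CPM values for 13734 genes. Tools in the submitters' processing notes are HISAT2, featureCounts, edgeR, FastQC and Trimmomatic, and the builds given there are GRCm38 and mm10. The design text names TMM scaling, so the library sizes behind the CPM may be scaled. Strand use in counting is not stated. Every deposited value equals the log2 of whole reads plus 0.5 over a library size (100% whole at a tolerance of 0.01 reads). Gene symbols and coordinates come from RefSeq, GRCm38.p6 (13682 genes matched, 52 did not). Exon lengths and 3′ UTRs come from GENCODE M21.

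limma 3.58.1 (R 4.3.3) was fitted with an intensity trend to the log2 CPM of 10054 genes that reached 1 CPM in 3 or more libraries, with group as the only term. p-values were Benjamini-Hochberg adjusted over these 10054 genes and called under 0.05. The script was tested on simulated data. Ratios of pairs were compared by exact permutation. Python 3.11.15, pandas 2.3.3, numpy 2.4.6, scipy 1.17.1 and matplotlib 3.10.9 did the rest. Alternatives changed scaling, filter, pseudocount, test, library weights, replicate block and libraries. Library weights by limma's default REML did not converge, and gene-by-gene weights were put in their place after the REML result had been seen, so both are given.

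Members and gene lists were chosen with earlier results of these data known. Every member could be named. Values in every library were given for members past the threshold, for the smallest p and largest difference in each role group, for pairs, and for members with a difference opposite in sign to the median, and those of Tomm20, Timm44, Hspa9 and Timm29 were added after their values were seen. Of other pathway genes, the 2 with the smallest p in each list were named, and Oxa1l was named outside that rule. Sequences were copied from RefSeq and GENCODE.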

Additional observations from a re-analysis of the deposited data

How the results depend on the processing

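Over 17 alternatives the 28 members' differences gave 476 values, of which 427 kept their direction and their side of the threshold, 24 passed it and 25 changed sign, over 9 members. All 25 were of members whose difference with all libraries was at most 0.10 log2 in size. Genes called higher and lower, 15 and 29 with all libraries, were 23 and 47 with robust moderation, 1928 and 1371 with gene-by-gene library weights (8 members higher), and 2542 and 1942 with REML weights (9 members higher and 1 lower). Leaving out each library in turn gave 0 to 1257 higher and 1 to 726 lower genes, and 0 to 6 members higher. The highest counts came without DICER_KO replicate 3. Without any other 1 library 0 members were called, and all-gene counts fell without control replicate 1 (4 and 7), control replicate 2 (3 and 7), control replicate 3 (0 and 1) and DICER_KO replicate 2 (7 and 12).

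Same-numbered libraries' deviations from their group means correlated at 0.196, -0.014 and -0.079. With 3 libraries a group, 1 of them far from its group, these correlations cannot decide whether the numbers pair the samples. With the replicate block 0 genes were called higher and 2 lower, and 0 members.

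With equal medians Timm29 was at -0.012 and Tomm20 at -0.0037, and after quantile normalization they were at -0.0051 and -0.011. The all-gene median moved from 0.02 to -0.02 with equal medians. With gene-by-gene weights Timm29 was at -0.066 and Timmdc1 at -0.062, and with REML weights Timm29 was at -0.11, Timmdc1 at -0.10 and Tomm20 at -0.013. Leaving out 1 library, differences that changed sign ranged from -0.037 to 0.099 (Timm29), -0.085 to 0.013 (Timm50), -0.030 to 0.076 (Tomm20), -0.074 to 0.040 (Tomm40), -0.082 to 0.20 (Tomm40l), -0.035 to 0.24 (Hspe1), -0.058 to 0.17 (Hspa9), -0.023 to 0.16 (Timmdc1) and -0.0032 to 0.20 (Timm10). Ratios that changed sign ranged from -0.16 to 0.032 (Tomm40 over Tomm40l), -0.012 to 0.080 (Hspd1 over Hspe1), -0.14 to 0.047 (Mtx1 over Mtx2) and -0.15 to 0.11 (Grpel1 over Grpel2). The cause of these changes was not tested. With 3 libraries a group, 1 of them apart from its group, differences of this size did not pass the test with all 6 libraries, and reads were too few to test Timm8a2 and Tomm6os.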
